A study of Homo sapiens with 6 samples.

Results

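The genes described here are 10 regulators of the entry into S phase: the Cip/Kip inhibitors CDKN1A, CDKN1B and CDKN1C, the INK4 inhibitors CDKN2A and CDKN2B, the D-type cyclins CCND1, CCND2 and CCND3, and the E-type cyclins CCNE1 and CCNE2. They were taken by gene symbol, with no threshold on a measured value, although earlier results of these data were known when the list was made, and all 10 were among the 37887 rows of the count table. The data were RNA-seq of BT-549 cells, an established triple-negative breast cancer (TNBC) line, in 2 groups of 3 libraries. The libraries of the control group (shCTL) are titled control shRNA and labelled as treated with vehicle, which was 0.1% DMSO. Those of the silenced group (shPBRM1) are titled PBRM1 shRNA and labelled as treated with doxycycline (DOX) at 500 ng/ml. The series design describes a tet-PBRM1 shRNA vector expressed stably in the cells, so that the controls would carry it uninduced, and whether they instead carried a separate control shRNA was not settled by the labels. The study's paper names the cells of its chromatin assays BT-549/CshRNA and BT-549/PBRM1shRNA. By the labels, DOX was given to the silenced group only, so that its effect and that of the silencing cannot be told apart. The labels do not say whether the cells were 1 clone. The cells were cultured in triplicates, and p-values measure the spread between these libraries, which may be technical.

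Progression from G1 into S phase depends on cyclin-dependent kinases (CDKs). D-type cyclins activate CDK4 and CDK6, and E-type cyclins activate CDK2. INK4 proteins bind CDK4 and CDK6, Cip/Kip proteins bind cyclin-CDK complexes, and the kinases phosphorylate the retinoblastoma family of pocket proteins, which releases E2F transcription factors.

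Total counts were between 36429395 and 65096297 per library. Counts were scaled to CPM, which are counts relative to the library size, with edgeR's TMM factors, and the 15450 genes that passed the filter on low counts entered edgeR's quasi-likelihood test. The detection floor, set at 3 counts, was between 0.0461 and 0.0824 CPM. PBRM1, a subunit of the PBAF chromatin remodeling complex and the target of the shRNA, had 5870, 7619 and 8118 counts in shCTL against 2598, 1591 and 2657 in shPBRM1, with a log2 fold change of -1.91 (SE 0.027). Of the receptor genes that define the triple-negative label, ESR1 had at most 2 counts and PGR at most 12 in any library, whereas ERBB2 had 1906 to 3161 counts, or 49.6 to 52.4 CPM, and RNA counts do not show receptor status. The summed level of the mesenchymal markers VIM, CDH2 and ZEB1 was 1042 to 1094 CPM in shCTL and 1265 to 1277 CPM in shPBRM1, with VIM and CDH2 higher and ZEB1 lower in shPBRM1, at 197 and 135 CPM on average. The epithelial markers CDH1 and EPCAM summed to 4.67 to 5.37 CPM in shCTL and 1.27 to 1.97 CPM in shPBRM1. Markers of leukocytes stayed at or below 1.09 CPM in sum, with CD3E at 0 in all 6 libraries, and those of endothelium at or below 0.456 CPM. The leukocyte gene PTPRC had 26, 40 and 44 counts in shCTL and 12, 4 and 6 in shPBRM1. In bulk RNA, fewer cells of a type and less RNA per cell cannot be told apart.

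Among the 9 members tested, CDKN1A fell and CCND2 rose by more than 2-fold in cells silenced for PBRM1. CDKN2B, CCND3 and CCND1 fell and CCNE2 rose by smaller amounts, while CDKN1B, CDKN2A and CCNE1 did not pass the test. CDKN1C was too low to be tested. At an adjusted p under 0.05 with a fold change over 2, the counts were 1 member lower and 1 higher, or 2 of 9, where 9.68% of all tested genes were lower, 2.87% were higher and 12.6% were called in either direction. At an adjusted p under 0.05 alone, 4 members were lower and 2 were higher, against 33.2% and 31.5% of all tested genes and 64.7% in either direction. The groups did not overlap for 6 of the 9 members, against 68.3% of all tested genes, so that the share called without a fold minimum and the share without overlap were near the background. The median log2 fold change was -0.12 over the 9 members and -0.0080 over all tested genes.

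**Figure D1:**
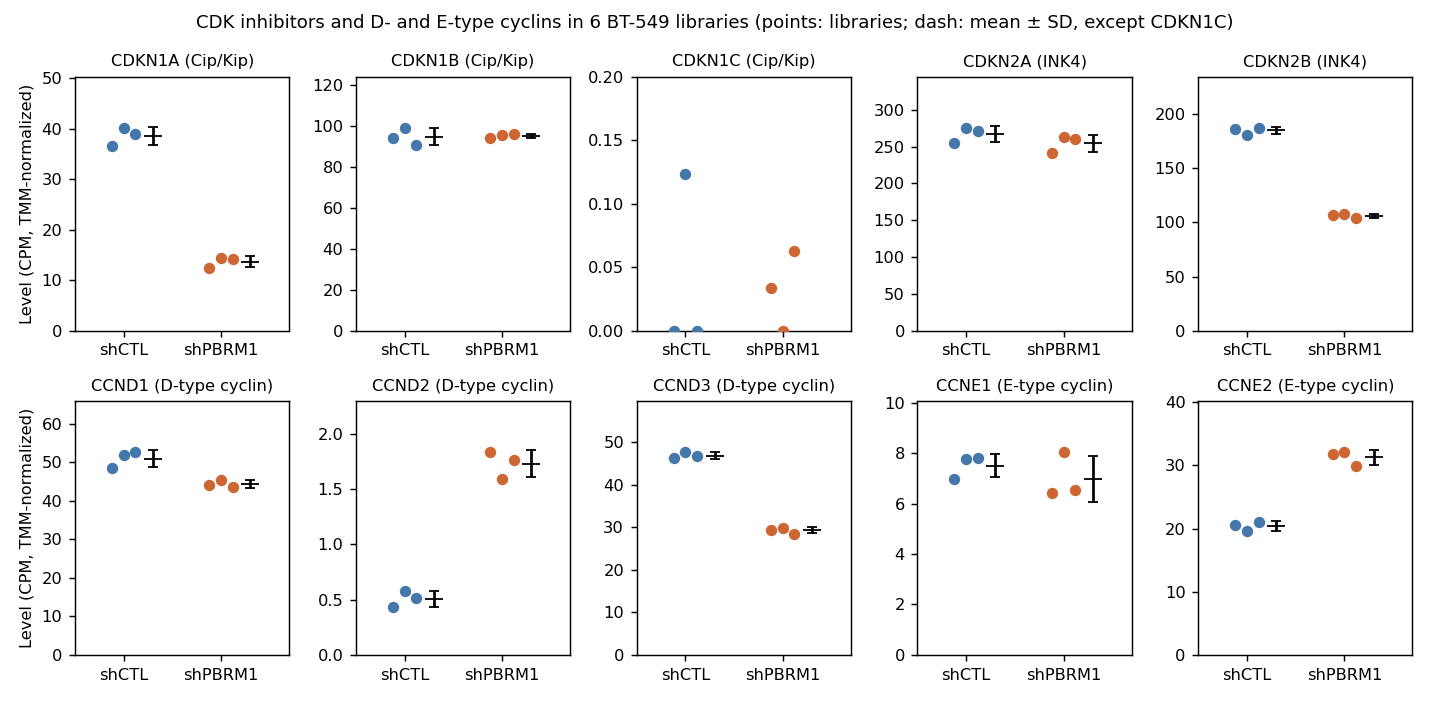
Level of each of the 10 members in each library, in CPM normalized by TMM, on axes that start at 0 and differ between panels. Points are libraries of shCTL and shPBRM1, and the dash with its bar gives the mean ± SD (not drawn for CDKN1C). The groups are apart in CDKN1A, CDKN2B, CCND1, CCND2, CCND3 and CCNE2 and overlap in CDKN1B, CDKN2A and CCNE1.

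CDKN1A encodes p21, an inhibitor that arrests the cycle after DNA damage. In GENCODE v29 (GRCh38) the gene lies on chr6:36676460-36687339, on the plus strand. Its levels were 36.5, 40.2 and 39.0 CPM in shCTL and 12.5, 14.3 and 14.2 CPM in shPBRM1. The lowest control stood well above the highest silenced library, and the libraries within each group lay close together. The mean fell from 38.6 ± 1.87 (SD, n = 3) to 13.7 ± 1.04 CPM (SD, n = 3), a 2.83-fold lower level. The log2 fold change was -1.50 (SE 0.077, 95% interval -1.71 to -1.29), with an adjusted p of 2.17e-15 by edgeR's quasi-likelihood test. DINOL is annotated on the other strand of the locus, and CDKN1A shared no stretch of 50 bases with a transcript of another gene.

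CDKN2B, which encodes p15, an INK4 inhibitor known to be induced by TGF-beta, lies on chr9:22002903-22009363 on the minus strand. Of the members that fell, it had the highest level, with 187, 181.1 and 188 CPM in shCTL against 107.3, 107.5 and 104.2 CPM in shPBRM1. No library of either group came near the other group. The decrease was 1.74-fold, from 185 ± 3.54 to 106 ± 1.83 CPM (SD, n = 3 each), with a log2 fold change of -0.80 (SE 0.022) and an adjusted p of 2.09e-15 by edgeR's quasi-likelihood test.

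Sequence upstream of the start of these 2 inhibitors, which had the largest decreases among the members, is shown from the RefSeq promoter windows of GRCh38.p14, 5′ to 3′ on the strand of the gene, over the stretch that no annotated exon covers. Capitals mark the GC box, GGGCGG or its reverse complement, a motif bound by SP1. For CDKN1A the stretch is chr6:36678560-36678657, from -154 to -57 relative to the start, and for CDKN2B it is chr9:22009364-22009555, from -250 to -59.
CDKN1A: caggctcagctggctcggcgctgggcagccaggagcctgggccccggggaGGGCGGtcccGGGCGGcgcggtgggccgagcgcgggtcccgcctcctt
CDKN2B: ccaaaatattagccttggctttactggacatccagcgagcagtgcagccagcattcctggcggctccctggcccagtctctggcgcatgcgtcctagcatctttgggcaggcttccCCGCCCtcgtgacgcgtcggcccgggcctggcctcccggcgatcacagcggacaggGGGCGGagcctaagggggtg
The CDKN1A stretch has 81.6% G and C, with GC boxes that start at -104 and -94, and its whole window of 300 bases holds 4 matches. In the CDKN2B stretch G and C make up 66.1%, and the GC boxes start at -134 and -78. A window was given for 6 of the 10 members, CDKN1A, CDKN1B, CDKN2A, CDKN2B, CCND3 and CCNE1, with 9 windows in all. These 6 each had a GC box in at least 1 window, CDKN1B and CDKN2A included, which did not pass the test, and CCNE1 had 7 matches. On both strands, 45.0% of all 35116 promoter windows of that length hold a GC box. The E2F motif TTTNGCGC occurs in 1.79% of the windows, the interferon motifs GAS (TTCNNNGAA) and ISRE (GAAANNGAA) in 7.66% and 8.11%, and TATAAA, searched as the core of a promoter, in 11.5%, and none of these occurs in the members' windows. CCAAT, in 34.6% of all windows, occurs in windows of CDKN1B and CCND3. A match, or its absence from these windows, describes the letters alone.

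CDKN1B encodes p27, the inhibitor whose protein level is set largely by SKP2-dependent degradation. It lies on chr12:12715058-12722371 on the plus strand. Its levels of 93.9, 99.0 and 90.8 CPM in shCTL enclosed those of 94.2, 95.3 and 96.1 CPM in shPBRM1. The log2 fold change was 0.0091 (SE 0.037), with a 95% interval of -0.095 to 0.11 and an adjusted p of 0.838 by edgeR's quasi-likelihood test. Its sign turned under 3 of the other settings, all of them without a call. CDKN1C, the imprinted gene of p57 at chr11:2883213-2885773, had 0, 6 and 0 counts in shCTL and 2, 0 and 4 in shPBRM1, at or near the floor, and gives no comparison.

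CDKN2A, on chr9:21967753-21995301, encodes both p16, an INK4 inhibitor, and the ARF protein from another reading frame, and counts per gene do not separate the transcripts. Its levels were 254.9, 275.7 and 271.3 CPM in shCTL and 241.1, 262.9 and 260.01 CPM in shPBRM1. The groups overlapped, and in both of them replicate 1 was the lowest. Between libraries of the same replicate number the silenced one was the lower in all 3 pairs. The means were 267 ± 10.98 and 255 ± 11.8 CPM (SD, n = 3 each), and the log2 fold change of -0.070 (SE 0.052, 95% interval -0.22 to 0.075) had an adjusted p of 0.154, and of 0.0510 with the replicate block, by edgeR's quasi-likelihood test. With scaling by library size only, CDKN2A passed the test at -0.12. CDKN2A and CDKN2B neighbour each other and share 31 stretches of 50 bases, which are 0.681% of those of CDKN2A and 0.765% of those of CDKN2B. Both are overlapped on the other strand by CDKN2B-AS1, and whether the counting used strand is not given in the sources used here. CDKN2B-AS1 itself had a log2 fold change of 0.015 (adjusted p 0.853 by edgeR's quasi-likelihood test).

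CCND1, on chr11:69641087-69654474, and CCND3, on chr6:41934933-42050357, carried nearly all of the D-type cyclin RNA. CCND3 fell from 46.2, 47.6 and 46.7 CPM in shCTL to 29.4, 29.9 and 28.5 CPM in shPBRM1. That is 1.60-fold lower without overlap, with a log2 fold change of -0.68 (SE 0.025) and an adjusted p of 1.99e-11 by edgeR's quasi-likelihood test. CCND1, the D-type cyclin amplified in many breast cancers, had 48.5, 51.9 and 52.7 CPM in shCTL and 44.1, 45.6 and 43.7 CPM in shPBRM1. Its groups were also apart, but the step was small, 1.15-fold lower, with a log2 fold change of -0.20 (SE 0.041) and an adjusted p of 0.000441 by edgeR's quasi-likelihood test. LTO1 is annotated on the other strand of CCND1, and AL513008.1 on that of CCND3.

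CCND2, the D-type cyclin at chr12:4273772-4305350, was nearly silent. It had 16, 28 and 26 counts in shCTL and 110, 62 and 112 in shPBRM1, or 0.429, 0.576 and 0.516 CPM against 1.83, 1.59 and 1.76 CPM. All 6 libraries were above the floor and the groups were apart. The level was 3.38-fold higher in shPBRM1, with a log2 fold change of 1.76 (SE 0.13) and an adjusted p of 7.49e-07 by edgeR's quasi-likelihood test. The fold change was the largest among the members while the gain in level was about 1 CPM. A same-strand transcript, AC008012.1, shares 940 of the 7106 stretches of 50 bases of CCND2, or 13.2%, so that the assignment of its reads is uncertain. On the other strand, CCND2-AS1 had 2 counts in a single library.

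The E-type cyclins parted from each other. CCNE2, on chr8:94879770-94896678, had 20.5, 19.6 and 21.1 CPM in shCTL and 31.8, 32.1 and 29.95 CPM in shPBRM1. Every silenced library exceeded every control, and the level was 1.53-fold higher, with a log2 fold change of 0.61 (SE 0.044) and an adjusted p of 3.27e-09 by edgeR's quasi-likelihood test. INTS8 and NDUFAF6 overlap CCNE2 on the other strand. CCNE1, on chr19:29811898-29824308, had 6.97, 7.76 and 7.79 CPM in shCTL and 6.41, 8.04 and 6.53 CPM in shPBRM1. Replicate 2 of shPBRM1 was the highest of the 6 libraries and the other silenced libraries were the lowest, and the log2 fold change of -0.12 (SE 0.12, 95% interval -0.44 to 0.21) had an adjusted p of 0.325 by edgeR's quasi-likelihood test.

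Ratios of raw counts within a library do not depend on the scaling between libraries. The ratio of CDKN1A to CDKN1B was 0.389, 0.406 and 0.429 in shCTL and 0.132, 0.150 and 0.148 in shPBRM1. CDKN2A to CDKN2B gave 1.36, 1.52 and 1.45 against 2.25, 2.45 and 2.49. In both pairs of inhibitors the ratio moved toward the gene that did not pass the test, which restates the changes given above. The ratio of CCND1 to CCND3 was 1.05, 1.09 and 1.13 in shCTL and 1.50, 1.52 and 1.53 in shPBRM1. For CCNE2 to CCNE1 it was 2.94, 2.53 and 2.71 against 4.95, 3.99 and 4.59. None of these ratios overlapped between the groups, and each pair holds a member whose own groups were apart. Of all tested genes taken singly, 68.3% had no overlap, and the ratios are no separate evidence.

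**Figure D2:**
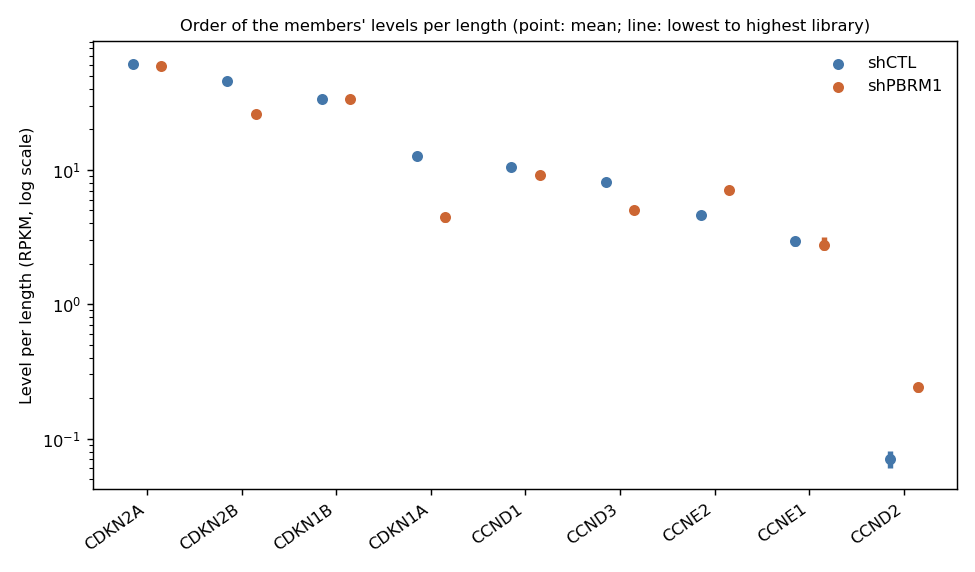
Levels of 9 members in RPKM (CPM per kilobase of exon, log axis) in shCTL and shPBRM1. Points are means of 3 libraries, with bars from the lowest to the highest library (CDKN1C, near the floor, is not drawn). CDKN1A moves from 12.6 to 4.48 RPKM and drops below CCND1, CCND3 and CCNE2.

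Levels of different genes were compared per kilobase of annotated exon (RPKM). In shCTL the order was CDKN2A at 61.7, CDKN2B at 45.6, CDKN1B at 33.6, CDKN1A at 12.6, CCND1 at 10.6, CCND3 at 8.07, CCNE2 at 4.64, CCNE1 at 2.94, CCND2 at 0.0708 and CDKN1C at 0.0166 RPKM. In shPBRM1 it was CDKN2A at 58.8, CDKN1B at 33.9, CDKN2B at 26.2, CCND1 at 9.20, CCNE2 at 7.11, CCND3 at 5.05, CDKN1A at 4.48, CCNE1 at 2.74, CCND2 at 0.241 and CDKN1C at 0.0129 RPKM. INK4 and Cip/Kip genes held the first 4 places in shCTL, and CDKN1A ranked below 3 cyclins in shPBRM1. The library ranges of neighbouring genes did not overlap in either order, although the last place, CDKN1C, rests on at most 6 counts per library. The lengths assume all annotated exons and do not tell which transcripts were expressed.

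Summed per kilobase, Cip/Kip levels were 46.3 ± 1.86 RPKM in shCTL and 38.4 ± 0.677 RPKM in shPBRM1 (SD, n = 3 each), a ratio of 0.828. For the INK4 members, CDKN2A and CDKN2B, the sums were 107.4 ± 2.16 and 85.04 ± 2.61 RPKM, a ratio of 0.792. With CDKN2C and CDKN2D, the INK4 genes outside the members, the direction turned, since the sum over all 4 was 138.2 ± 1.55 RPKM in shCTL and 148.6 ± 3.67 RPKM in shPBRM1, a ratio of 1.08. D-type cyclins went from 18.7 ± 0.564 to 14.5 ± 0.308 RPKM, a ratio of 0.775. E-type cyclins had a higher sum in shPBRM1, 9.85 ± 0.550 against 7.58 ± 0.244 RPKM, a ratio of 1.30. CDKN1A made up 27.3% ± 0.988 of the Cip/Kip sum in shCTL and 11.7% ± 0.701 in shPBRM1, and CDKN2B made up 42.5% ± 1.34 and 30.8% ± 1.20 of the INK4 sum. The share of CCND2 in the D-type sum was 0.378% and 1.67%. These sums are descriptions without a test.

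**Figure D3:**
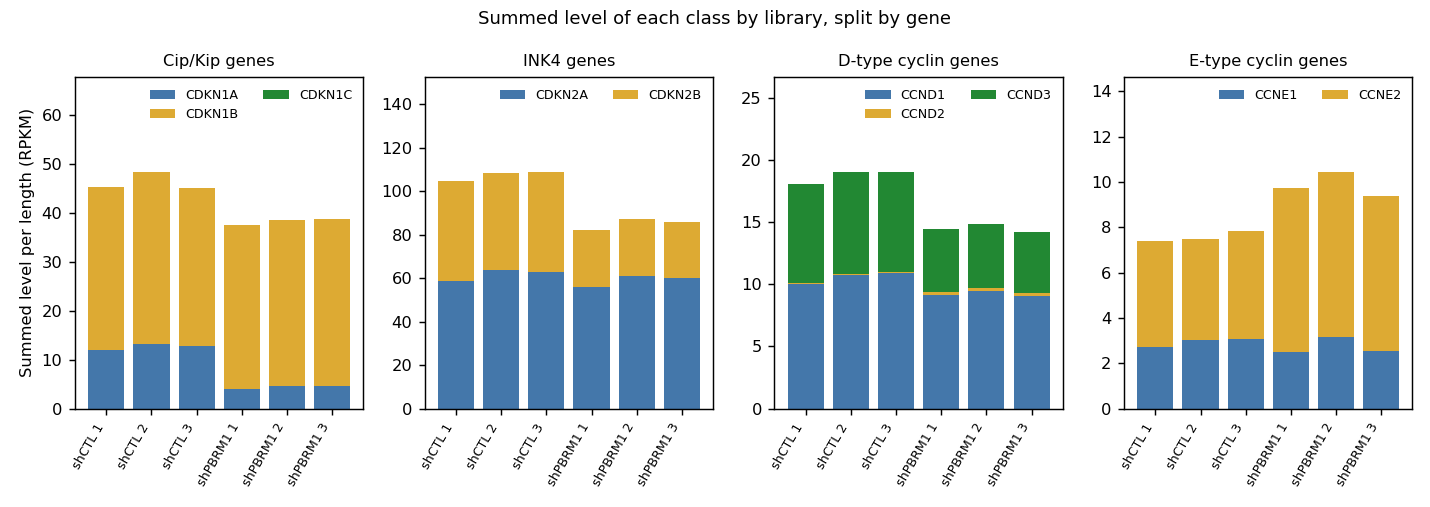
Sum of the levels of the members of each class (RPKM) in each library, with bars stacked by member and starting at 0. Of the 4 classes as made up of members, the E-type cyclins are the one with higher sums in the 3 shPBRM1 libraries, at 9.85 RPKM on average against 7.58 RPKM in shCTL.

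Around the members, 80 genes of the pathway and its surroundings were listed, of which 76 were tested. At an adjusted p under 0.05, 34 rose and 28 fell, where 31.5% of all tested genes were higher, 33.2% lower and 64.7% called in either direction. The counts of the lists that follow use the same threshold and have the same background. Where genes over 2-fold are given, the background is 2.87% of all tested genes higher and 9.68% lower. Among the partner kinases, CDK6 rose, with 6075, 7560 and 8459 counts in shCTL and 18161, 11916 and 19989 in shPBRM1, a log2 fold change of 0.92 (SE 0.035) and an adjusted p of 1.03e-15 by edgeR's quasi-likelihood test. CDK2, the partner of E-type cyclins, rose by a log2 fold change of 0.12, and CDK4 had -0.074 (adjusted p 0.0513 by edgeR's quasi-likelihood test). Of the CDK-activating kinase, CCNH fell by 0.38 and CDK7 by 0.18 on the log2 scale, and MNAT1 had -0.067 without passing.

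Both INK4 genes outside the members rose. CDKN2C, which encodes p18, had 83.6 ± 0.787 CPM in shCTL and 188 ± 2.53 CPM in shPBRM1 (SD, n = 3 each). Its log2 fold change was 1.17 (SE 0.014), with an adjusted p of 1.07e-18 by edgeR's quasi-likelihood test. The ratio of CDKN2C to CDKN2B counts was 0.453, 0.460 and 0.443 in shCTL and 1.73, 1.76 and 1.82 in shPBRM1, so that the counts of CDKN2C were the lower ones in every control and the higher ones in every silenced library. CDKN2D, which encodes p19, rose by 0.27.

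All 3 pocket protein genes fell, RBL1 by 0.39, RB1 by 0.24 and RBL2 by 0.15 on the log2 scale. Of 10 E2F and DP genes, 5 rose and 3 fell, with a median of 0.090. E2F1, an activator of S phase genes, rose by 0.52 and E2F8, a repressor of the family, by 0.54, while TFDP2, a dimer partner, fell by 0.44. E2F5, at -0.15, had an adjusted p of 0.0953 and, with the replicate block, 0.0326 by edgeR's quasi-likelihood test.

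Of 10 genes for turnover of these proteins and activation of the kinases, 8 rose, AMBRA1 fell by 0.21 on the log2 scale and PPP2R2A did not pass, with a median of 0.39. SKP2, the F-box protein that targets p27, rose by 1.16 (SE 0.043, adjusted p 2.16e-17 by edgeR's quasi-likelihood test). CDC25A, a phosphatase that activates CDK2, rose by 0.75, and CKS1B, the cofactor of SKP2, by 0.68. All 9 genes for S and M phase cyclins and proliferation rose, with a median of 0.82. MYBL2 rose by 1.39, CCNA2 by 1.15 and FOXM1 by 0.96. The 3 of them over 2-fold were MYBL2, CCNA2 and CCNB2, the last chosen after its value was seen. CCNB2 was barely past the line, at 1.002 on the log2 scale (95% interval 0.946 to 1.058). The part of these genes in the changes of the members was not tested.

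**Figure D4:**
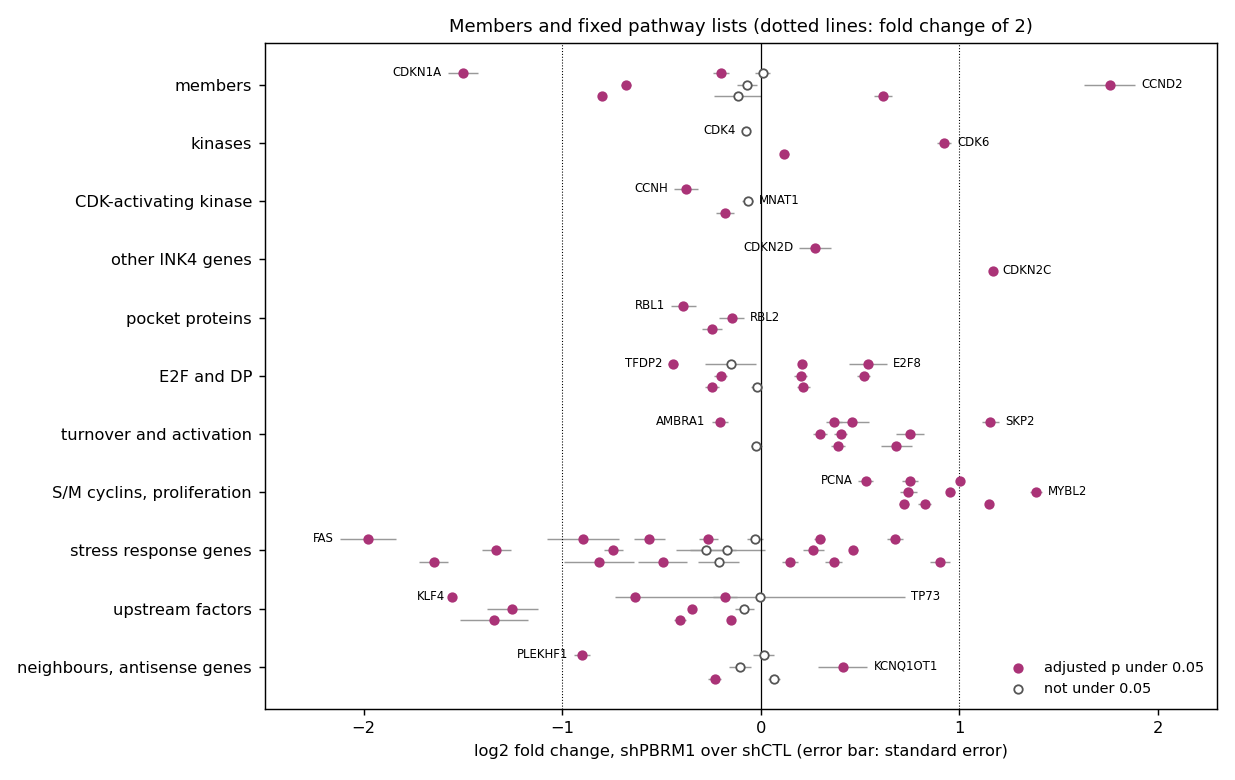
Log2 fold change of shPBRM1 over shCTL for the tested members and for each tested gene of the pathway lists, with the standard error as a bar. Filled points passed an adjusted p under 0.05 and open points did not, dotted lines mark a fold change of 2, and the lowest and highest gene of most lists are named. The 9 genes of S and M phase and proliferation lie between 0.53 and 1.39, while the 20 stress response genes lie between -1.98 and 0.90.

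A list of 20 other genes of the stress and DNA damage response held changes in both directions. They were listed as known targets of a transcription factor that also acts on CDKN1A. Of these, 7 rose, 9 fell and 4 did not pass, with a median of -0.24. Those over 2-fold were 3 of the genes that fell, and the genes that rose reached 0.90 on the log2 scale. With scaling by library size only, 5 rose and 10 fell. GADD45A, a stress sensor, fell by 1.33, with counts of 1375, 1995 and 1950 in shCTL and 933, 644 and 918 in shPBRM1 (adjusted p 1.29e-14 by edgeR's quasi-likelihood test). SESN2, an antioxidant and mTORC1 regulator, fell by 0.74. FAS, a death receptor, at -1.98, and PHLDA3, at -1.65, were the other genes of the list over 2-fold lower, named after their values were seen. Among the genes that rose, POLH, a DNA polymerase for damaged templates, had 0.68, RRM2B, a subunit of ribonucleotide reductase, 0.47, and MDM2, a ubiquitin ligase, 0.30, all named after their values were seen.

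Of 10 genes for upstream factors that are known to act on the members, 8 fell, and TP73 and SMAD3 did not pass, with a median of -0.38. KLF4, a zinc finger factor known to activate CDKN1A, had 3814, 4985 and 5130 counts in shCTL and 2083, 1364 and 2211 in shPBRM1. Its log2 fold change of -1.55 had an adjusted p of 1.51e-20 by edgeR's quasi-likelihood test. FOXO3, a factor that can induce CDKN1B, fell by 0.63 and HIF1A by 0.41. FOXO1, at -1.35, and TP63, at -1.25, were with KLF4 the genes over 2-fold lower, both added after their values were seen.

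Genes next to the members were compared for a change over a wider region. Of 10 listed neighbours and antisense genes, 8 were in the table under the symbols listed and 6 were tested. LTO1, beside CCND1, was listed under its older symbol, ORAOV1, and was not compared. MTAP, beside CDKN2A, fell by 0.23 on the log2 scale, a smaller step than that of CDKN2B. PLEKHF1, near CCNE1, fell by 0.90, whereas URI1, on the other side of CCNE1, had 0.066 and did not pass. KCNQ1OT1, the antisense transcript of the imprinted region of CDKN1C, rose by 0.41. BYSL, beside CCND3, had -0.11 (adjusted p 0.0898 by edgeR's quasi-likelihood test). H19 had at most 9 counts in a library and was not tested.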

How the data were processed

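RNA-seq libraries of poly(A) RNA from BT-549 cells were analyzed in 2 groups of 3. Raw counts for each gene symbol, not normalized, were deposited by the authors in 1 table of 37887 rows, and 14 rows hold a date where a symbol should be. Per the submitters' processing notes, CASAVA 1.8.2, STAR 2.7.9a, featureCounts, DESeq2 1.24.0 and the build GRCh38.p7 were used. The annotation and the strand setting of the counting are not given in the sources used here. Of the counts from 1 to 10, between 61.6% and 62.7% were even, and whether both mates of a read pair were counted was not tested. Control columns were matched to samples by their replicate number.

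The test was that of edgeR 4.0.16, run in R 4.3.3 (TMM, filterByExpr, quasi-likelihood F-test, group as the only term, two-sided) with Benjamini-Hochberg adjustment over all 15450 genes kept. Each standard error was computed from the replicates' log2 CPM (prior count 2), and the 95% intervals from that error over the 6 libraries. They are not the errors of the moderated edgeR fit, and for single genes they can be small by chance. Floors cover counting error only. Libraries of a group differed by more than sampling noise (chi-square divided by its degrees of freedom, 4.66 to 22.6). Replicate 1 of shPBRM1 gave 19.5 and 22.6 with the other silenced libraries, which gave 6.69 between them. Pairs of controls reached 6.86. RPKM used exon lengths of GENCODE 29, and promoter sequences were those of RefSeq.

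The members and lists were chosen with earlier results of these data known. All members, the kinases, pocket proteins, neighbours and PBRM1 were named, and up to 3 genes with the smallest adjusted p in each list among those under 0.05. Values of some listed genes are left out, including where this rule would name them. Libraries with the same replicate number in the titles deviated together, with correlations of 0.734, 0.593 and 0.419 across 5622 genes (not independent replicates). Those of different numbers lay between -0.671 and 0.464, the highest, shPBRM1 replicate 3 with shCTL replicate 2, being above that of the third pair. Every pair passed 0.1, so the number was also fitted as a block. The other alternatives were DESeq2 1.42.0, RLE factors, library size only, other filters on low counts, glmTreat and each library left out. Leaving libraries out of the count ratios and the sum over all 4 INK4 genes were added after seeing the data. On simulated counts for shPBRM1 against shCTL with 200 genes changed 4-fold, edgeR recovered 200 among 15421 tested, with 2 false calls. The simulated libraries were independent, with a dispersion fixed for all genes, unlike the real ones. The recovery therefore does not gauge calls of smaller changes.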

Additional observations from a re-analysis of the deposited data

How the results depend on the processing

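Of 241 values computed under other settings, 236 kept their direction and their side of the threshold, or moved by less than the limits set for counts and ratios. CDKN1B, which did not pass in any setting, had -0.0398 on the log2 scale with library size only (adjusted p 0.349) and -0.0012 with a mean of at least 50 counts (adjusted p 0.977), and between -0.0208 and 0.0434 with 1 library left out, the negative value without replicate 3 of shCTL. CDKN2A passed with library size only, at -0.1195 (adjusted p 0.0123), which brought the members called lower to 5. That scaling moved the median of all tested genes from -0.0080 to -0.056. The sum of the INK4 genes, 0.792 of shCTL over the 2 members, was 1.075 over all 4 INK4 genes, a choice made after seeing the data. With the replicate block, the log2 fold change of CDKN1A was -1.50 and the calls of the members did not change. In the listed genes E2F5 alone gained a call under the block, giving 29 lower in place of 28. With glmTreat against a fold change of 2, 1 member was higher and 1 lower. All adjusted p-values are from edgeR's quasi-likelihood test. The cause of these changes was not tested. Depth limits CDKN1C, at no more than 6 counts in a library, and CCND2, at 16 to 112.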
